A study of Mus musculus with 4 samples.

Results

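The Hox genes, the homeodomain transcription factors that record position along the head-to-tail axis and the limb, were read out in bone marrow stromal cells of mature and elderly mice. The members were all gene symbols made of Hox, a cluster letter from a to d and a number, which gave 39 genes among the 33924 gene symbols of the count tables. They comprised 11 Hoxa genes (NCBI Build 37, mm9, chr6:52105366-52210874), 10 Hoxb genes (chr11:96055630-96229570), 9 Hoxc genes (chr15:102751534-102867274) and 9 Hoxd genes (chr2:74506367-74603200). Their 91 annotated transcripts were summed per gene in each library. The mature group was 3 months and the elderly group 24 months old, and both were wild-type C57Bl/6 mice without a treatment, described as male in the methods of the study. Each age had 2 libraries of poly(A) RNA. The methods describe RNA pooled from 3 or 4 mice for each group, without saying whether that means a library or an age, whereas the sample titles number the libraries of each age as mouse 1 and mouse 2. Whether the SD over 2 libraries (n = 2) describes mice, pools or parts of 1 pool was therefore not settled. The labels give bone marrow as the tissue and describe whole marrow, whereas the methods describe a sort from femurs and tibiae for cells without the lineage markers Ter119, CD31 and CD45 and with the leptin receptor (Lin-LEPR+), a fraction that holds skeletal stem and progenitor cells.

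Mammalian Hox genes lie in 4 clusters, and genes at the same place in different clusters form a paralog group. During development, genes of low group number are switched on first and towards the head, and genes of high group number later and towards the tail. In the limb, group 10 is known for patterning the upper segment, group 11 the middle segment and group 13 the hand and foot. Mesenchymal cells keep part of this code in the adult, so that stromal cells of different bones carry different Hox profiles.

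All 39 genes hold a homeobox of 180 bases, whose last part codes for the helix that reads DNA. The next stretches, bases 121 to 180 of the homeobox in the coding transcripts of GENCODE release M1, are shown for 6 of the more abundant members to let the DNA-reading part be compared between paralogs and between groups. Capitals mark the 18 bases that code for the core of the recognition helix.
Hoxa5: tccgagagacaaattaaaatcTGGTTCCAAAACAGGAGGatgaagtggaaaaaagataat
Hoxc6: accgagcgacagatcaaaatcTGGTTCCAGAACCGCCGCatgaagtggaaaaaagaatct
Hoxc9: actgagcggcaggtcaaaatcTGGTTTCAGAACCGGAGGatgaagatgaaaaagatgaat
Hoxa10: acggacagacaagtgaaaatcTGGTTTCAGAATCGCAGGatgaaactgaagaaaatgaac
Hoxc10: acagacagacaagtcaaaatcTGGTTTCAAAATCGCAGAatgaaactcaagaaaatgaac
Hoxc11: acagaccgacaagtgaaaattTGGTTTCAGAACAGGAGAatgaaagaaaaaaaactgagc
Hoxa10 and Hoxc10, of the same paralog group, were identical at 80.6% of their homeobox bases, and Hoxa5 and Hoxc10, of different groups and clusters, at 60.6%. The identity of whole homeoboxes had a median of 80.6% (range 67.2% to 93.9%) over the 42 pairs within a paralog group. It was 61.7% between other genes of the same cluster and 60.6% over all other pairs. Identical runs of at least 40 bases anywhere in their transcripts were shared by 9 gene pairs. Of these, Hoxa6-Hoxb4, Hoxa6-Hoxa7, Hoxa7-Hoxb4, Hoxb3-Hoxd3, Hoxb9-Hoxc9 and Hoxb9-Hoxd9 held between 1 and 13 such 40-base words. In Hoxa2-Hoxa3, Hoxb7-Hoxb8 and Hoxd3-Hoxd4 the annotated transcripts themselves overlap, with 230 to 1080 words. Reads on bases where annotated transcripts overlap were not counted. How reads from the runs shared by genes at different places were assigned is not given in the sources used here.

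The libraries held 11930137 and 11730849 counts in mature and 10472117 and 15650518 counts in elderly mice, and 21340 genes were tested. Reads on bases shared by several transcripts were not counted, so a level per kb below is CPM (counts scaled to library size and TMM factor) divided by the kb of bases that belong to 1 transcript alone, called own bases. The 15 markers of LEPR+ stroma summed to 43523 and 41722 CPM in mature and to 25804 and 37951 CPM in elderly libraries, and none was at 0. Markers of hematopoietic cells, whose progenitors also express Hox genes, moved the other way in several lists. The 12 stem and progenitor markers summed to 8.52 and 10.7 CPM in mature and 20.5 and 17.0 CPM in elderly libraries, with 1 marker at 0 and 0 called of 10 tested by edgeR, DESeq2 or the exact test (2 higher at an unadjusted p under 0.05 with edgeR). Of all 21340 genes 2.28% were called higher and 0.450% lower. The erythroid list (9 of 11 tested called higher) summed to between 202 and 449.5 CPM in mature and between 1350 and 1501 CPM in elderly libraries. The neutrophil list (9 of 13 higher) summed to between 1262 and 2181 CPM and between 4676 and 4722 CPM. Called higher were also 1 of 11 B lineage, 2 of 6 plasma cell, 5 of 9 macrophage, 1 of 7 endothelial, 4 of 14 proliferation, 2 of 10 osteoblast and 1 of 6 chondrocyte genes. Called lower were 1 osteoblast and 3 chondrocyte genes. The sums of 2 of these lists lay lower in both elderly libraries, as the Hox sum did: the osteoblast sum was 7102 and 6467 CPM in mature and 2288 and 4262 CPM in elderly libraries, and the B lineage sum 771 and 681 against 515 and 607 CPM. No megakaryocyte or T cell gene was called by edgeR, although 4 T cell genes were higher at an unadjusted p under 0.05 and DESeq2 called 1 and the exact test 2 of them. The part of these lists in the Hox values was not tested, and in bulk RNA fewer cells of a type and less RNA per cell cannot be told apart.

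Hoxa5, known from lung and from vertebrae at the neck-to-chest border, and its neighbour Hoxa6 had the highest levels of all Hox genes per kb. Hoxa5 lay at 49.0 and 65.1 CPM per kb in mature and at 38.9 and 43.6 CPM per kb in elderly libraries. Hoxa6 lay at 56.4 and 58.0 and at 37.2 and 41.9 CPM per kb. The levels of these genes overlapped within each age. Hoxa9, which hematopoietic progenitors also use, followed at a mean of 26.3 CPM per kb over the 4 libraries, and Hoxc6 (18.3) and Hoxc10 (17.5) came next. Per kb of the longest transcript, Hoxc6 (23.2) stood above Hoxa9 (19.0), so that order rests on the length used. Hoxc6 ranged from 12.3 to 27.2 and Hoxc10 from 15.5 to 19.5 CPM per kb, so their order was not settled. Then came Hoxa3 (10.7), Hoxc11 (10.4), Hoxa2 (9.82), Hoxa10 (8.61), Hoxa7 (8.57), Hoxd8 (8.55) and Hoxc5 (7.60), all within a narrow band. Hoxb4 had the highest level of the Hoxb cluster, at 3.23 CPM per kb.

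**Figure D1:**
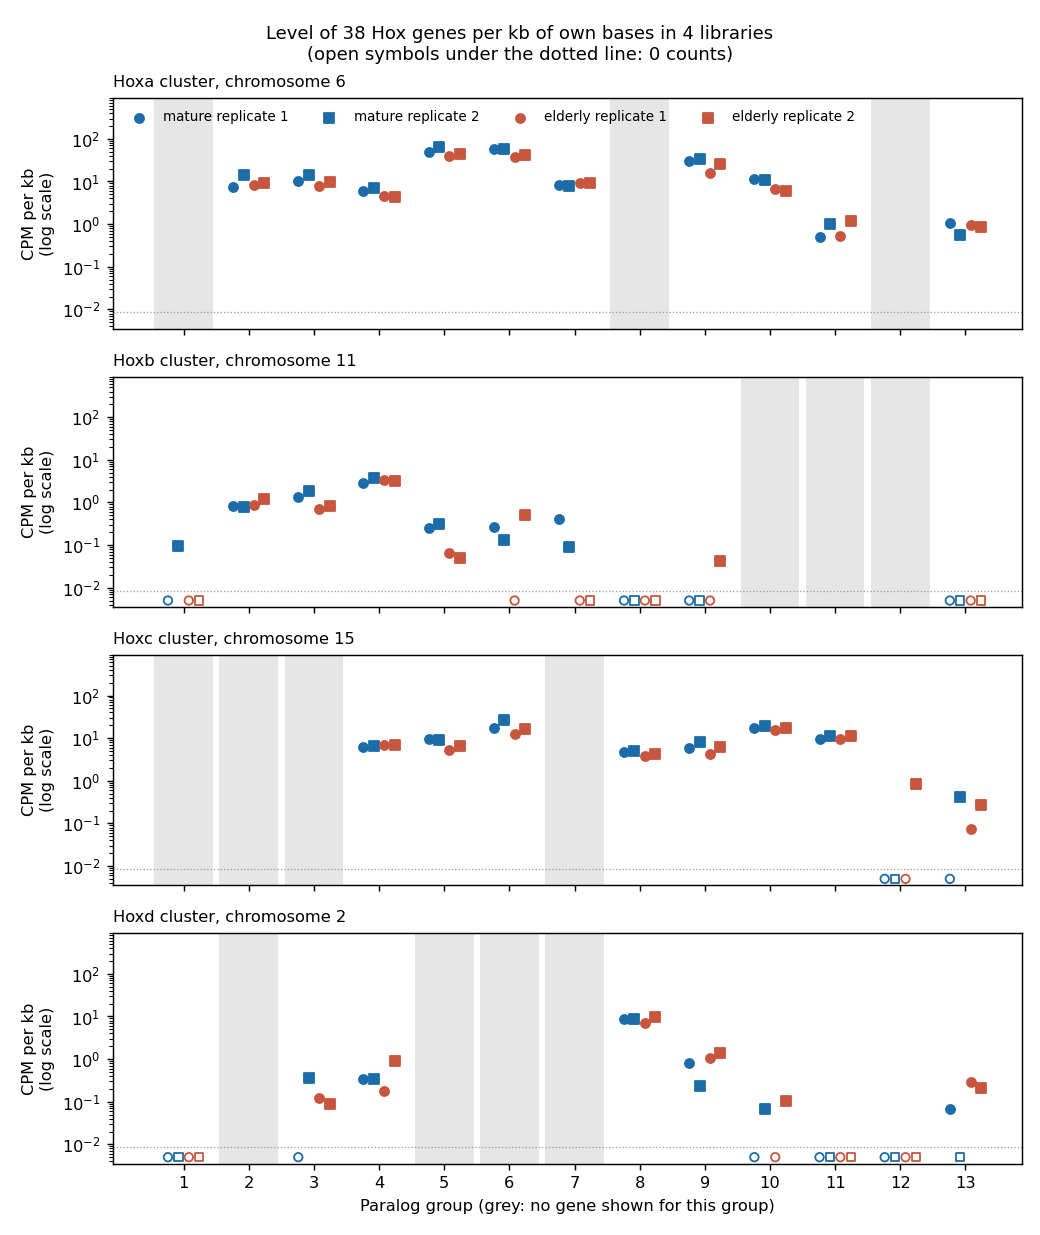
Level of 38 Hox genes in CPM per kb of own bases (log axis) by paralog group, with 1 panel per cluster, blue symbols for mature and red for elderly libraries, circles for replicate 1 and squares for replicate 2; open symbols are 0 counts. Hoxa5 and Hoxa6 stand highest, between 37.2 and 65.1 CPM per kb, and most Hoxb and Hoxd genes lie near or under 1 CPM per kb or at 0.

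The expressed code lay mainly in the Hoxa and Hoxc clusters. Levels above 4 CPM per kb in every library were found in Hoxa2 to Hoxa7, Hoxa9, Hoxa10, Hoxc4 to Hoxc6 and Hoxc9 to Hoxc11, and outside these clusters in Hoxd8. Of the genes of group 13, Hoxa13 averaged 0.844, Hoxc13 0.190 and Hoxd13 0.143 CPM per kb, and Hoxb13 had 0 counts. Hoxb8, Hoxb13, Hoxd1, Hoxd11 and Hoxd12 had 0 counts in all 4 libraries. A count of 0 allows up to 3 counts, between 0.198 and 0.269 CPM, and this limit covers counting error only. Hoxb1 (2 counts, both in mature replicate 2) and Hoxb9 (1 count, in elderly replicate 2) were too low to test.

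The level of some genes could not be read because little of their sequence could be counted, and 9 of the 39 had under 1000 own bases. Hoxa11, the group 11 gene that marks stroma of the middle limb segment, had 168 own bases, 6.25% of its longest transcript, and 1 to 3 counts per library. Its low count was therefore not read as a low level. Hoxd4 kept 514 of 2560 bases, Hoxa7 762 of 2031 and Hoxa10 801 of 2565. Of the genes with 0 counts in every library, Hoxb8 kept 820 of 2645 bases and Hoxd11 1576 of 4257, so their 0 was not read as absence. When divided by the longest transcript instead, Hoxa10 was at 2.69, Hoxc4 at 3.18, Hoxa4 and Hoxd8 at 3.19 and Hoxa7 at 3.22 CPM per kb, so that these 5 averaged under 4, whereas Hoxa5 stayed at 49.1 and Hoxa6 at 40.4. The comparison between ages uses the same bases in all libraries.

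The comparison of ages asked whether the positional code of these cells differed in elderly mice. No Hox gene passed the test: of 32 tested, 0 were called higher and 0 lower by edgeR's quasi-likelihood test at an adjusted p under 0.05, against 2.28% of all 21340 genes called higher and 0.450% called lower (2.73% in either direction). At an unadjusted p under 0.05 edgeR gave 0 higher and 7 lower, against 7.61% and 3.64% of all genes. DESeq2 gave 0 higher and 6 lower unadjusted, with 0 calls, and edgeR's exact test at a dispersion of 0.2 gave 2 higher and 2 lower unadjusted, with 1 call. The 7 were Hoxa5, Hoxa6, Hoxa9, Hoxa10, Hoxb7, Hoxc5 and Hoxc6. The lowest adjusted p was 0.211, of Hoxb7. The median log2 fold change (elderly minus mature) was -0.21 over the 32 genes, with 19 below 0, and 0.016 over all genes, of which 48.8% were below 0.

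Over 3 counts in a library of both ages were found in 23 Hox genes, and 22 of these are described next with all their values. In 11 of the 23 the 2 elderly values were the lowest, in 4 they were the highest, and in 8 the ages overlapped. Among all genes with such counts, 19.3% had both elderly libraries below and 21.2% above. The median log2 fold change of the 23 was -0.29. Permuting 4 libraries gives no p smaller than 0.333, and the p-values of edgeR's quasi-likelihood test rest on a spread shared across genes.

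**Figure D2:**
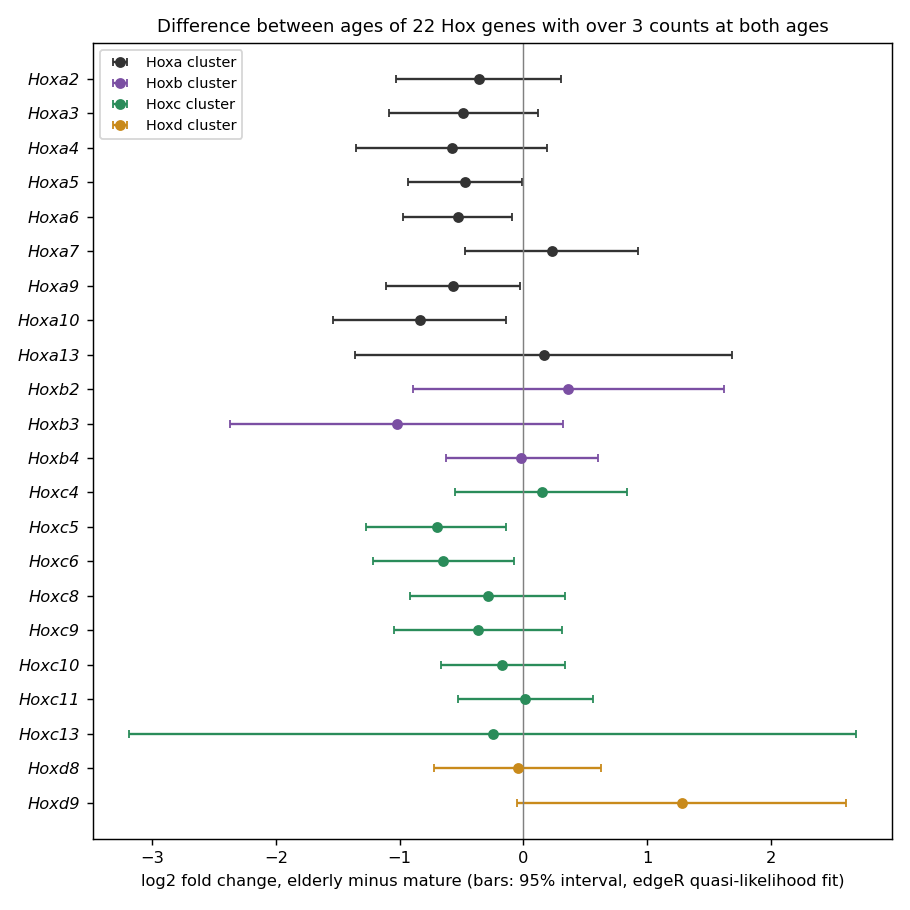
Log2 fold change of 22 Hox genes, elderly minus mature, from edgeR's quasi-likelihood fit, with 95% intervals as bars and 1 colour per cluster. Most Hoxa and Hoxc genes sit to the left of 0, the intervals of Hoxa5, Hoxa6, Hoxa9, Hoxa10, Hoxc5 and Hoxc6 end below 0 before adjustment, and Hoxd9 sits furthest to the right, at 1.28.

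In the Hoxa cluster, 7 of 10 such genes had a value below 0, and their median log2 fold change was -0.48. Hoxa5 was counted at 91.9 and 122 CPM in mature and at 73.0 and 81.8 CPM in elderly libraries. Both elderly libraries were the lower ones, at a log2 fold change of -0.47 (95% interval -0.93 to -0.01, adjusted p = 0.435 from edgeR). Hoxa6, an abundant gene with narrow replicates, went from 81.4 and 83.8 to 53.7 and 60.6 CPM. The gap between its ages was wider than the spread within either, with a log2 fold change of -0.53 (-0.97 to -0.09, edgeR adjusted p = 0.29). Hoxa9 had 68.9 and 77.3 CPM in mature and 37.2 and 61.2 CPM in elderly libraries. Its elderly libraries differed from each other by more than the mature ones, and the log2 fold change was -0.57 (-1.11 to -0.03, edgeR adjusted p = 0.399). It was -0.27 without elderly replicate 1 and -0.98 without elderly replicate 2, and without mature replicate 2 the value of Hoxa5 was -0.29.

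Hoxa10, known for giving the lumbar spine and upper limb segment their identity, had the lowest log2 fold change of the Hoxa genes named here. It was counted at 8.95 and 8.75 CPM in mature and at 5.21 and 4.68 CPM in elderly libraries. Replicates of each age lay close together and the ages apart, at -0.84 (-1.54 to -0.14, edgeR adjusted p = 0.293). These counts came from 2 of its 6 transcripts, since the others had 2 own bases or none. Coding transcript ENSMUST00000121043 had 41, 48, 24 and 34 counts in mature replicates 1 and 2 and elderly replicates 1 and 2, on 231 own bases. The noncoding transcript ENSMUST00000138481 had 63, 54, 34 and 37 counts on 568 own bases, so both were lower in the elderly libraries.

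Hoxa3, which is needed for thymus and parathyroid, had 16.8 and 23.2 CPM in mature and 12.8 and 15.6 CPM in elderly libraries (log2 fold change -0.49, -1.09 to 0.12). Hoxa4 had 5.59 and 6.60 CPM against 4.13 and 4.02 CPM (-0.58, -1.35 to 0.19). In both genes the elderly libraries were the lower ones without passing the test, and the annotated span of Hoxa3 covers Hoxa4, Hoxa5 and Hoxa6. Most Hoxa3 counts came from the noncoding transcript ENSMUST00000148446, with 147 and 202 in mature and 104 and 171 in elderly libraries. Its coding transcripts ENSMUST00000114434 (45 and 63 against 36 and 64 counts) and ENSMUST00000134831 (3 and 6 against 3 and 2) held fewer. The ages of ENSMUST00000114434 overlapped once scaled to depth. Hoxa2, the gene of the second branchial arch, had 16.4 and 31.2 CPM against 17.4 and 19.6 CPM (-0.36, -1.03 to 0.30). Its mature replicates lay further apart than the ages did.

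The summed counts of Hoxa7 went the other way from its neighbours Hoxa6 and Hoxa9, but its interval did not settle a direction and the contrast was not tested. Its transcripts differed, with a log2 fold change of -0.65 in the longest, ENSMUST00000153280, and of 0.14 to 0.81 in the others. Hoxa7 values follow for the sum. It was counted at 6.20 and 5.83 CPM in mature and at 6.92 and 7.19 CPM in elderly libraries, so both elderly libraries were above, at a log2 fold change of 0.23 (-0.47 to 0.93, edgeR adjusted p = 0.886). Hoxa13, a gene of digits and the urogenital tract, had 15 and 8 counts in mature and 13 and 16 counts in elderly libraries (0.17, -1.36 to 1.69). Its ages overlapped and its interval was too wide to settle a direction.

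In the Hoxc cluster, 6 of 8 such genes had a value below 0, with a median of -0.27. Hoxc5 was counted at 24.0 and 22.6 CPM in mature and at 12.8 and 15.8 CPM in elderly libraries. The ages did not overlap, and its adjusted p was the lowest of the 23 genes, with a log2 fold change of -0.70 (-1.27 to -0.14, edgeR adjusted p = 0.263). Hoxc6, a gene of the thorax and the paralog of Hoxa6, had 37.4 and 57.6 CPM against 26.0 and 34.3 CPM. The mature libraries spread widely but stayed above both elderly ones, at -0.65 (-1.22 to -0.08, edgeR adjusted p = 0.329). Without mature replicate 2 it was -0.35.

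The Hoxc genes of higher number had values nearer 0. Hoxc8 had 11.0 and 11.7 CPM in mature and 8.71 and 9.90 CPM in elderly libraries (log2 fold change -0.29, -0.92 to 0.34). Hoxc9, a determinant of thoracic motor neurons, had 10.9 and 14.7 CPM against 7.99 and 11.7 CPM (-0.37, -1.05 to 0.31). Only the former had ages that did not overlap, and neither passed the test. Hoxc10 and Hoxc11 are genes of the hindlimb, from which these cells came. Hoxc10 had 30.6 and 34.0 CPM in mature and 26.9 and 30.5 CPM in elderly libraries (-0.17, -0.67 to 0.34). Hoxc11 had 19.8 and 22.2 CPM against 19.2 and 23.2 CPM (0.01, -0.53 to 0.56). For Hoxc11, the interval thus bounds a fall to 0.691 and a rise to 1.48 times the mature level.

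Hoxc4 was the other Hoxc gene with a value above 0 and with both elderly libraries above, at 6.20 and 6.60 CPM in mature and 7.10 and 7.06 CPM in elderly libraries (0.15, -0.55 to 0.84). Hoxc13, the regulator of hair keratins, had 0 and 12 counts against 2 and 10 counts (-0.25, -3.19 to 2.69). Its replicates disagreed within each age. Pooled over both clusters, 10 of 13 such genes of groups 1 to 9 had a value below 0, with a median of -0.47. Among the 5 genes of groups 10 to 13, 3 did, with a median of -0.17. This split was chosen after the values were seen, and the difference between the parts was not tested.

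The Hoxb cluster was low apart from Hoxb4, and 3 of its 10 genes had over 3 counts at both ages. Hoxb4, a gene known for expanding blood stem cells when overexpressed, had 11.4 and 14.9 CPM in mature and 13.3 and 12.7 CPM in elderly libraries. Both elderly values lay between the mature ones, with a log2 fold change of -0.02 (-0.63 to 0.60, edgeR adjusted p = 0.991). Hoxb3 had 18 and 25 counts against 9 and 15 counts (-1.02, -2.37 to 0.32), with the elderly libraries below. Hoxb2, a hindbrain gene, had 16 and 15 counts against 16 and 30 counts (0.36, -0.89 to 1.62), and its elderly libraries were above once scaled to depth.

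Hoxb7 came closest to a call. Mature replicate 1 had 14 and mature replicate 2 had 3 counts, whereas both elderly libraries had 0. The mean mature level was 3.13 times the limit of 3 counts per elderly library. Most of the counts stood in mature replicate 1, so 3.13 is not a lower bound. Mature replicate 2, at 0.257 CPM, lay itself within the elderly limits of 0.198 to 0.269 CPM. The adjusted p was 0.211 with edgeR's quasi-likelihood test and 0.049 with the exact test at a dispersion of 0.2, and DESeq2 gave none. Over the alternatives that kept all 4 libraries, the adjusted p of Hoxb7 lay between 0.049 and 0.244. Its log2 fold change was -6.20 in the main fit, -4.76 without mature replicate 1 and -6.97 without mature replicate 2. Hoxb5 also had more mature counts, 8 and 10 against 2 and 2, a mature level 5.08 times the elderly one (counting interval 1.67 to 20.6). Its edgeR adjusted p was 0.532. Hoxb6 had 2, 1, 0 and 5 counts and gave no direction.

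The Hoxd cluster rested on Hoxd8 and Hoxd9. Hoxd8 had 8.52 and 8.57 CPM in mature and 7.10 and 9.44 CPM in elderly libraries, on both sides of the mature values (log2 fold change -0.04, -0.72 to 0.63, edgeR adjusted p = 0.982). Hoxd9, which works with its group 9 and 10 paralogs in the upper limb segment, had 20 and 6 counts in mature and 26 and 47 counts in elderly libraries. Both elderly libraries were above, at 1.28 (-0.05 to 2.61, edgeR adjusted p = 0.472), but the mature replicates differed by more than the nearest libraries of different age. Without mature replicate 1 the value was 2.38, and without mature replicate 2 it was 0.62.

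Among the other genes of few counts, Hoxd13 had 2 and 0 counts in mature and 8 and 8 counts in elderly libraries. Its elderly level was 7.08 times the mature one, with a wide counting interval of 1.67 to 63.5, and its edgeR adjusted p was 0.568. Hoxc12 had 13 counts in elderly replicate 2 and 0 in the other libraries, so its value rests on 1 library. Hoxd3 (0, 6, 2 and 2 counts), Hoxd4 (2, 2, 1 and 7) and Hoxd10 (0, 2, 0 and 4) had overlapping ages.

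Summed over the 39 genes, the Hox level was 465 and 561 CPM in mature and 348 and 421 CPM in elderly libraries. That is 513 ± 68.3 CPM (SD, n = 2) against 384 ± 52.1 CPM (SD, n = 2), or 74.9% of the mature level. The elderly libraries lay below the mature ones, and leaving out each library in turn gave log2 ratios of the sums between -0.56 and -0.27, with -0.42 over all 4. When the same counts were set against those of the 15 LEPR+ stromal markers, a scaling chosen after the data were seen, the libraries had 10.7 and 13.4 Hox counts per 1000 marker counts in mature and 13.5 and 11.1 in elderly mice. On this scale the ages overlapped and the log2 ratio was 0.03. The stromal markers themselves had a median log2 fold change of -0.35, with 14 of 15 below 0 and 0 called by edgeR, DESeq2 or the exact test, and 4 were lower at an unadjusted p under 0.05 with edgeR and 6 with DESeq2.

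The Hoxa cluster made up 64.1% and 64.3% of all Hox counts in mature and 61.1% and 61.0% in elderly libraries. The share of the Hoxc cluster was 30.1% and 30.4% in mature and 31.4% and 31.8% in elderly libraries. Hoxb went from 3.52% and 3.51% to 4.52% and 3.84%, and Hoxd from 2.28% and 1.77% to 3.00% and 3.31%. The share of Hoxa was thus lower and that of each other cluster higher in both elderly libraries, by at most a few percentage points. Shares add up to the whole, so a lower share of the large Hoxa cluster raises the others, and these are not separate results. Differences in share were not tested. In CPM, the Hoxa, Hoxb and Hoxc sums lay lower in both elderly libraries, whereas the Hoxd sum overlapped between the ages, at 10.6 and 9.95 against 10.4 and 13.9 CPM. By paralog group, group 5 (25.1% and 26.0% against 24.7% and 23.2%) and group 6 (25.6% and 25.2% against 23.0% and 22.6%) held a smaller share. Groups 4, 7, 8, 11 and 13 held a larger one, as in group 11 with 4.28% and 3.99% against 5.56% and 5.55%. In CPM, groups 4, 7 and 11 overlapped between the ages (group 11 at 19.9 and 22.4 against 19.3 and 23.4 CPM), group 8 lay lower in both elderly libraries (19.5 and 20.3 against 15.8 and 19.3 CPM), and group 13 lay higher (1.46 and 1.71 against 2.07 and 2.24 CPM). Over a whole run of groups, the shares of groups 1 to 3, 4 to 8 and 9 to 13 each overlapped between the ages.

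**Figure D3:**
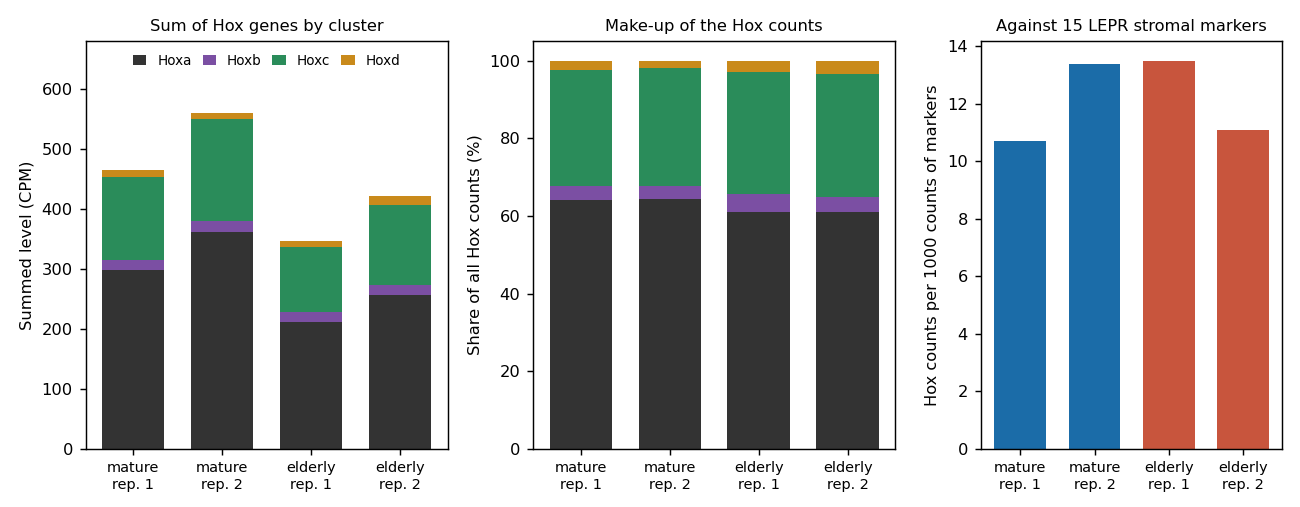
Left, summed CPM of the 4 Hox clusters in each library, stacked; middle, the share of each cluster in all Hox counts (percent); right, Hox counts per 1000 counts of 15 LEPR+ stromal markers. The stacked sum is lower in both elderly libraries (348 and 421 against 465 and 561 CPM), the make-up changes by a few percentage points, and the right bars overlap between the ages (10.7 to 13.5).

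No single Hox transcript passed the test either. Of the 91 Hox transcripts, 24 had no own base and 48 were tested, and 0 were called by edgeR, against 1.65% of the 42351 transcripts tested. At an unadjusted p under 0.05 edgeR gave 7, namely the main transcripts of Hoxb7, Hoxb5, Hoxc5 and Hoxc6 with a lower value and of Hoxc12, Hoxd9 and Hoxd13 with a higher one. The share of all transcripts at that unadjusted level is not given here, so the 7 were not read as many or few. The lowest adjusted p was 0.142.

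Between the outermost Hox genes of the clusters lie 24 other annotated genes, mostly noncoding RNAs. Of these, 12 were tested, 0 were called by edgeR or the exact test and 1 by DESeq2, 2 were lower at an unadjusted p under 0.05 with edgeR, and 8 had a value below 0, with a median of -0.44, and 3 had no own base. RP23-329P9.11, a noncoding transcript inside the span and on the strand of Hoxa9 (mm9, chr6:52178246-52180531), came closest. It was counted at 12.3 and 17.5 CPM in mature and at 5.30 and 6.93 CPM in elderly libraries, with a log2 fold change of -1.28 (-1.97 to -0.59, edgeR adjusted p = 0.0544). DESeq2 called it lower (adjusted p = 0.0272), as did edgeR with RLE factors (adjusted p = 0.0394), whereas the exact test gave an adjusted p of 0.68, and its adjusted p over all alternatives lay between 1.2e-03 and 0.68. Both elderly libraries lay well below, and it was counted on 1827 own bases. Opposite in strand to the Hoxa genes, 5730596B20Rik had 36.6 and 56.2 against 33.7 and 28.6 CPM (-0.58, -1.13 to -0.02) and 2700086A05Rik 10.1 and 8.66 against 6.74 and 5.34 CPM (-0.64, -1.33 to 0.06). Hoxb3os, antisense to Hoxb3, had overlapping ages, at 8.52 and 4.46 against 4.58 and 8.18 CPM. The library kit kept strand, but bases covered from either strand were left uncounted, so an antisense value covers only what its partner does not. Of 8 protein-coding genes within 100 kb of a cluster, 3 were tested, 0 were called by edgeR, DESeq2 or the exact test, and 1 was higher at an unadjusted p under 0.05 with edgeR. Among them, the Hoxd neighbour Mtx2 had 14.0 and 15.8 against 14.0 and 11.5 CPM.

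Hox proteins bind DNA together with TALE homeodomain partners of the Pbx, Meis and Pknox families. All 9 were tested, 0 were called by edgeR, DESeq2 or the exact test, 1 was lower at an unadjusted p under 0.05, 7 had a value below 0 and the median was -0.13. The 3 with the highest level per kb were Meis3 (541 and 590 counts in mature, 367 and 718 in elderly libraries), Pknox1 (982 and 1207 against 987 and 1340) and Pbx2 (346 and 407 against 292 and 666), each with overlapping ages. Meis1, a partner of Hoxa9 that is singled out here after its values were seen, had 159 and 151 counts against 87 and 96 counts. Its elderly libraries lay below, at a log2 fold change of -0.92 (-1.56 to -0.27, edgeR adjusted p = 0.175).

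Trithorax proteins keep Hox clusters active and Polycomb proteins keep them silent. Of 15 Trithorax-list genes tested 0 were called by edgeR, DESeq2 or the exact test and 0 reached an unadjusted p under 0.05, with a median of -0.09 and 10 below 0, and the Hox-activating genes Cdx1, Cdx2 and Cdx4 had 0 counts. Of 28 Polycomb genes tested 0 were called by edgeR, DESeq2 or the exact test and 2 were lower at an unadjusted p under 0.05 with edgeR, with a median of -0.19 and 23 below 0. Retinoic acid, made by aldehyde dehydrogenases, is a known inducer of Hox genes at the head end of the clusters, and 3 of 17 genes of its axis were called higher and 0 lower, against 2.28% and 0.450% of all genes. Aldh1a2, a synthesis enzyme, had 1547 and 1683 counts in mature and 2592 and 4025 counts in elderly libraries (log2 fold change 0.85, edgeR adjusted p = 0.0375). Aldh1a1, another such enzyme, rose by 2.19 on the log2 scale, from 101 and 74 to 442 and 444 counts (edgeR adjusted p = 0.0016). DESeq2 called both as well, and the exact test called neither (adjusted p = 0.0974 for Aldh1a1). Without elderly replicate 1 the log2 fold change was 1.94 for Aldh1a1 and 0.92 for Aldh1a2, and without elderly replicate 2 it was 2.40 and 0.75. Without mature replicate 1 these values were 2.44 and 0.79, and without mature replicate 2 they were 1.94 and 0.86. Each of these fits leaves 1 library at an age, so a kept or lost call in them was not read. Beside these values, the Hox genes of groups 1 to 3 summed to 36.3 and 59.7 CPM in mature and to 33.4 and 39.5 CPM in elderly libraries, with overlapping ages.

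Other factors of regional identity, such as T-box genes, were listed as a further comparison. Of 49 such genes 37 were tested, and 1 was called higher and 0 lower, with a median of -0.06. A single call of 37 is near the 2.28% of all genes called higher. Tbx15, a limb and scapula gene among those with the highest levels per kb, had 3366 and 3118 counts in mature and 1717 and 3354 counts in elderly libraries (log2 fold change -0.57, -1.04 to -0.10, edgeR adjusted p = 0.286). Dlx5 followed it in level, on 99 own bases, with 70 and 77 against 52 and 69 counts. The gene called was Shh, the morphogen of the posterior limb bud, whose transcription in the limb is switched on by Hox proteins of high group number. It had 29 and 54 counts against 213 and 354 counts, a rise of 2.57 on the log2 scale (1.82 to 3.33, edgeR adjusted p = 0.0018). DESeq2 and the exact test called it too. Its log2 fold change was 2.70 without elderly replicate 1 and 2.42 without elderly replicate 2. Without mature replicate 1 it was 2.20, and without mature replicate 2 it was 3.04. Such fits leave 1 library at an age, so a kept or lost call in them was not read.

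**Figure D4:**
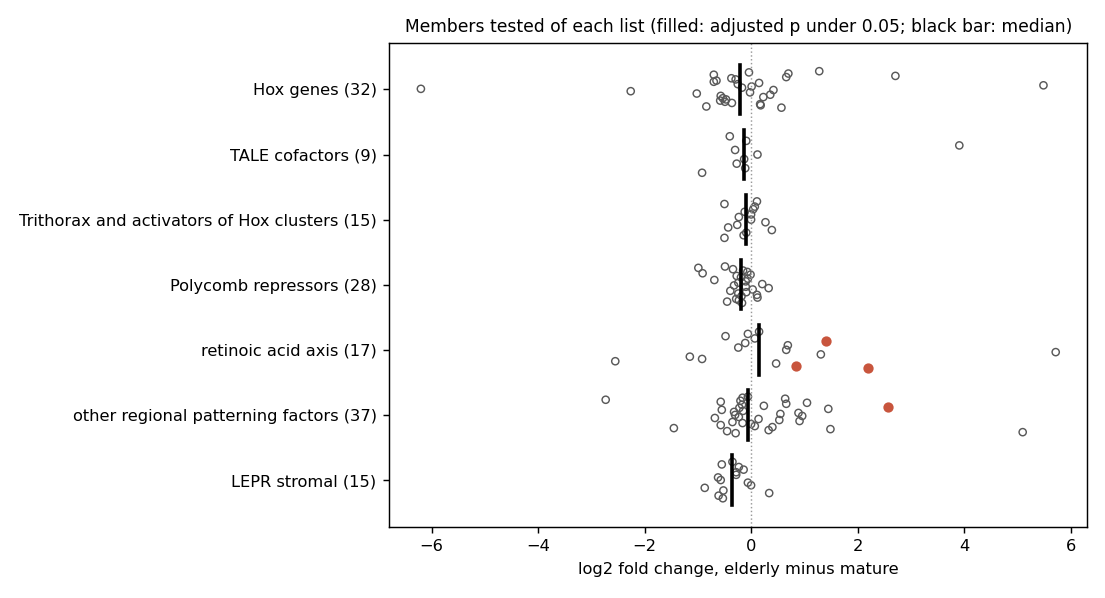
Log2 fold change (elderly minus mature) of each tested member of 7 gene lists, with the number tested in brackets, open circles for genes that were not called, filled circles for an adjusted p under 0.05 and a black bar for the list's median. All 32 Hox genes and all TALE, Trithorax, Polycomb and LEPR+ stromal genes are open; 3 retinoic acid genes and Shh are filled, to the right of 0.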

How the data were processed

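RNA-seq counts of 4 libraries were used, 2 of mature (3 months) and 2 of elderly (24 months) mice, grouped by the sample titles. Per the labels and the methods of the study, the authors isolated poly(A) RNA, made directional libraries, trimmed paired 40-base reads with CutAdapt, mapped them with HISAT2 to mm9 and used featureCounts, within Galaxy, for counting. The methods except some samples, named by abbreviations, from poly(A) selection. The deposited values are whole counts per Ensembl transcript without normalization. The strand and overlap settings of the counting are not given in the sources used here. All but 388 of 95883 transcripts matched GENCODE release M1, the annotation of the same build, and the 388 held 0.0785% to 0.0888% of the counts. All 25621 transcripts without a base of their own had 0 counts, including 807 covered from the opposite strand alone.

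Counts were summed per gene symbol (2 gene IDs for Hoxa3). Genes with over 2 counts in all were kept, scaled by TMM (factors 0.969 to 1.064) and tested between ages with edgeR 4.0.16's two-sided quasi-likelihood test in R 4.3.3, with Benjamini-Hochberg adjustment over all genes tested and a call at an adjusted p under 0.05. Intervals are 95%, and fitted fold changes use a prior count of 0.125. The common dispersion was 0.0687 (biological coefficient of variation 0.262). Since titles and methods differ on pooling, p-values measure only the spread between these libraries, which may be technical. Ratios of genes with few counts have exact binomial intervals, which cover counting error only, as does the limit of 3 counts. Values in every library are given for Hox genes with over 3 counts in a library of both ages and for called genes of the cofactor, regulator and regional lists, with the 3 of highest level of the cofactor and regional lists. Marker lists are given by counts. Homeoboxes were located by translating each gene's longest coding sequence and matching the core of the recognition helix. The genes that lie in the clusters were taken by coordinates. The Hox genes and all lists were chosen with earlier results of these data known. Some genes that meet these rules are not reported here. The fit was tested on simulated data. Alternatives were RLE factors, library size alone, TMM without immunoglobulin, hemoglobin and histone genes, other filters, DESeq2 1.42.0, the exact test at a dispersion of 0.2, a robust fit, a replicate term, transcripts, protein-coding genes, a prior count of 2, an added threshold of 2 on the log2 fold change, another length, and each library left out.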

Additional observations from a re-analysis of the deposited data

How the results depend on the processing

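The number of Hox genes called higher was 0 under every alternative run. The number called lower was 0 except for 1 gene, Hoxb7, with the exact test at a dispersion of 0.2, and it was between 0 and 1 when libraries were left out in turn. Over all genes, the 583 calls became 1157 without a filter, 233 with the exact test, 910 with the robust fit and 235 with an added threshold of 2 on the log2 fold change, and 0 to 866 when libraries were left out, with 41 without elderly replicate 1 and 0 without elderly replicate 2. The share of all genes called, against which the Hox counts are read, therefore rests on those libraries. Of 329 values of the 22 genes described, under alternatives, 317 kept their direction and side of the threshold and 0 passed it. Values turned sign in Hoxb4 with library size alone (0.03), Hoxc11 with filterByExpr (-0.01), and, with libraries left out, Hoxa2 (-0.75 to 0.13), Hoxa13 (-0.26 to 0.69), Hoxb4 (-0.20 to 0.15), Hoxc11 (-0.13 to 0.13), Hoxc13 (-1.46 to 5.47) and Hoxd8 (-0.27 to 0.13). Hoxa2 had 191 to 364 counts per library, and its mature replicates lay far apart (16.4 and 31.2 CPM). In the other genes the main value was small or rested on few counts. Of the 12 values that turned sign, 9 came from fits with a library left out. The exact test and the robust fit hardly move a log2 fold change, so that they kept the direction adds little. Hoxc13 was not tested with filterByExpr. Depth limits the genes of few counts: intervals of the 23 were 0.88 to 5.88 wide on the log2 scale. Few own bases, as the 168 of Hoxa11, limit a gene further.

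The libraries carry replicate numbers 1 and 2 at both ages. Deviations of same-numbered libraries from their age means were hardly correlated (r = 0.0425 over 14238 genes), so the numbers were not taken as pairs. With a replicate block, 1262 genes were called, 0 Hox genes in either direction, with 1 higher and 7 lower at an unadjusted p under 0.05, and the log2 fold change of Hoxc13 turned to 0.26. The block called Meis1 lower (adjusted p = 0.0486) and RP23-329P9.11 lower (adjusted p = 1.2e-03).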
